A study of Mus musculus with 9 samples.

Results

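The genes of the TGF-β and BMP pathways were followed in adipose-derived stem cells (ASCs) of 3 mouse fat depots. The list held 51 genes for ligands, ligand-binding proteins, receptors, Smads and Id factors, and its members were taken from the 54532 genes of the count table by an exact match of the gene name. Bulk mRNA sequencing was performed on ASCs grown from fat of C57BL/6 mice, namely subcutaneous (Sub-ASCs), abdominal (Ab-ASCs) or perivascular fat (PVASCs), with 3 libraries per group and 9 in all. The study asked how PVASCs differ from ASCs of the other depots, and all 3 pairs of groups were compared here. The labels name no transgene, deletion or added TGF-β family ligand for any group. Every culture was expanded over several passages in MEM-α with fetal bovine serum, recombinant human leukemia inhibitory factor and recombinant human FGF, so these additions were common to all groups. The sex and age of the mice behind the sequenced cultures are not given in the sources used here. The labels do not say whether the 3 libraries of a group came from separate animals or cultures, so the p-values below measure only the spread between these libraries, which may be technical.

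TGF-β family ligands are secreted dimers that bring together type II and type I receptor kinases on the cell surface. TGF-βs and activins mainly lead to phosphorylation of Smad2 and Smad3, and BMPs to that of Smad1, Smad5 and Smad9. Both groups of receptor Smads pair with Smad4, enter the nucleus and act on target genes, among them those of the inhibitory Smads and, for BMPs, the Id factors. Ligands can be held in latent complexes or trapped by antagonists outside the cell. In stromal cells, TGF-β is known for inducing contractile and matrix genes, and BMPs for roles in adipogenic and osteogenic commitment. The data below are mRNA levels, and neither protein nor Smad phosphorylation was measured in these libraries.

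Library totals ranged from 23781019 to 26872579 reads in Sub-ASCs, from 20524173 to 23832828 in Ab-ASCs and from 27136829 to 29881036 in PVASCs. Ab-ASC replicate 1 stood apart: its counts differed from those of replicates 2 and 3 with a chi-square per degree of freedom of 26.5 and 16.8, against 2.79 to 7.43 for the other pairs within a group. The labelled cell type was checked with marker lists, given as summed FPKM, where FPKM is the read count scaled by gene length in kilobases and by the library total. The 10 stromal markers of the list summed to 2656 to 2823 in Sub-ASCs, 1062 to 1076 in Ab-ASCs and 1146 to 1182 in PVASCs. Single stromal markers moved in both directions, and in Ab-ASCs as in PVASCs 3 were higher and 7 lower than in Sub-ASCs. Against Sub-ASCs, the log2 fold change of Ly6a (Sca-1) was -6.56 in Ab-ASCs and -4.20 in PVASCs, and that of Pdgfra -2.61 and -3.03. That of Thy1 was -0.53 and 1.41 and that of Cd44 1.29 and 0.88, and all of these were called by edgeR. Eng and Col1a1 on this marker list are also counted among the other genes of the pathway. The 10 smooth muscle markers summed to 82.0 to 83.4, 2653 to 3060 and 1906 to 1981, the 12 mesothelial markers to 3.89 to 4.87, 45.2 to 47.4 and 29.2 to 30.3, and the 15 proliferation markers to 40.5 to 42.9, 266 to 278 and 266 to 271, in the same order of groups. The 10 endothelial markers summed to 43.7 to 46.9, 13.8 to 14.9 and 177 to 178. The 10 macrophage markers summed to 217 to 227, 224 to 283 and 256 to 262, although Ptprc, which encodes the pan-leukocyte antigen CD45, stayed under 1 FPKM in every library. Most single macrophage markers did not rise with that sum: in Ab-ASCs as in PVASCs, 2 were higher and 8 lower than in Sub-ASCs. Over all tested genes, 38.3% were lower in Ab-ASCs and 35.7% in PVASCs. No marker was at 0 in all libraries. The smooth muscle, mesothelial and proliferation sums were higher in both Ab-ASCs and PVASCs than in Sub-ASCs, as were many members below, and the part of other cells or of cell division in those results was not tested. In bulk samples, fewer cells of a type and less RNA per cell cannot be told apart.

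Most members differed between the depots, as did most of all tested genes. The list was chosen with earlier results of these data known, so the shares below only describe it. Of the 51 members, 49 had enough reads to be tested with edgeR's quasi-likelihood test at an adjusted p under 0.05, and Bmp3 and Gdf5 did not. In PVASCs against Sub-ASCs, 25 members were higher and 19 lower, which is 89.8% of those tested, where 70.4% of all 16526 tested genes passed (34.7% higher and 35.7% lower). With a limit of 1 on the size of the log2 fold change as well, 27 members remained (55.1%), against 32.2% of all genes. In Ab-ASCs against Sub-ASCs, 24 members were higher and 21 lower (91.8%), where 75.3% of all genes passed (37% higher and 38.3% lower), and 32 members (65.3%) against 37.8% of all genes reached that size limit. PVASCs and Ab-ASCs were closer. There, 13 members were higher and 23 lower in PVASCs (73.5%), where 56.9% of all genes passed (24.7% higher and 32.1% lower), and 9 members (18.4%) against 15.4% of all genes reached it. The median absolute log2 fold change of the members was 1.23, 1.47 and 0.45 in these 3 comparisons, against 0.587, 0.75 and 0.381 over all tested genes. Each pair of comparisons shares 3 libraries, so the calls of 1 comparison are not independent of those of another.

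**Figure D1:**
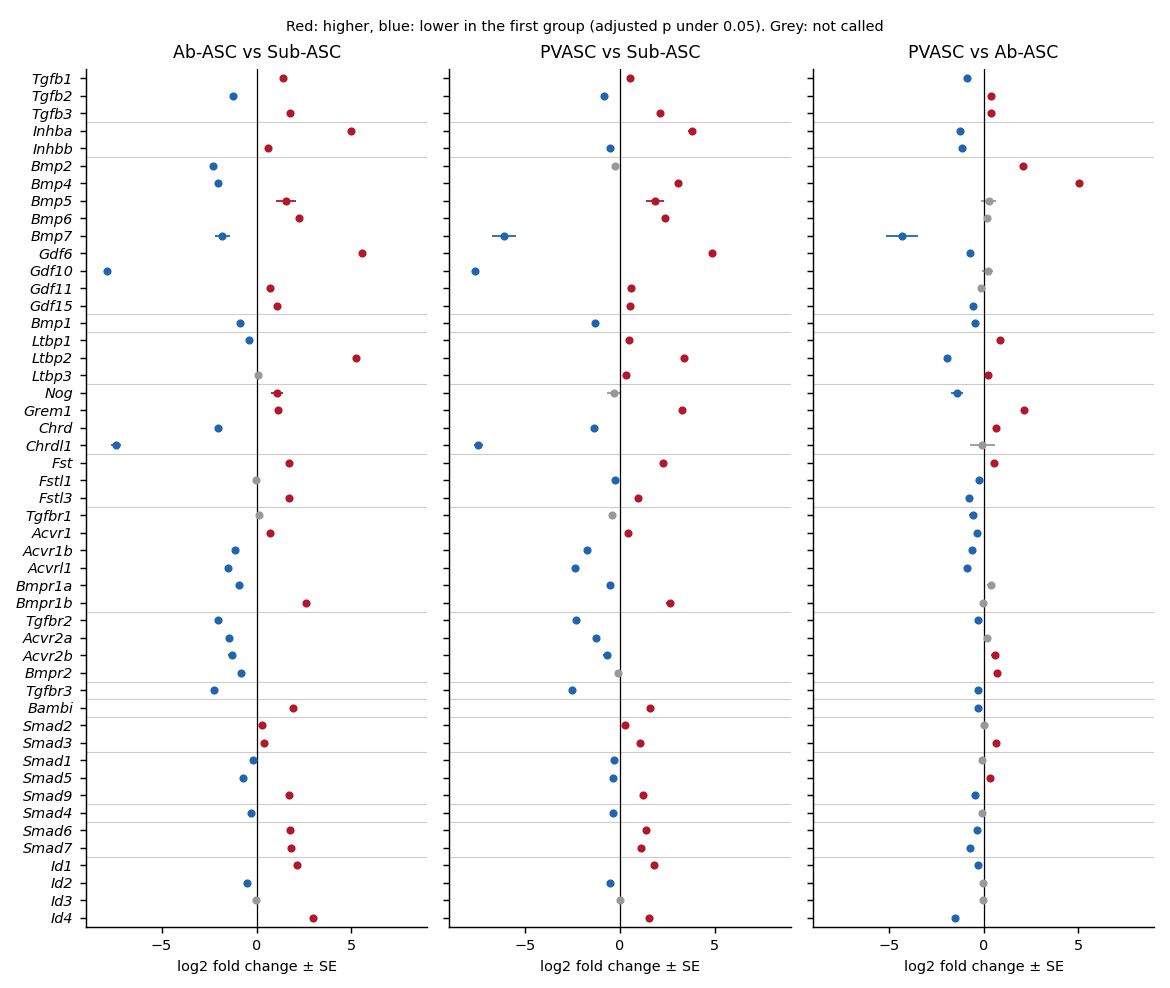
Log2 fold change of each of the 49 tested members in the 3 comparisons, with bars for the standard error and colour for the call. Gdf10 and Chrdl1 stand far to the left and Gdf6, Inhba and Ltbp2 far to the right in the comparisons with Sub-ASCs, Bmp7 is far to the left in PVASCs against Sub-ASCs, and Bmp4 is the farthest to the right in PVASCs against Ab-ASCs.

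The fold changes were scaled by TMM factors, which were 0.977 to 0.981 in Sub-ASCs, 0.908 to 0.953 in Ab-ASCs and 1.09 to 1.10 in PVASCs, whereas FPKM used the library total. Small differences between PVASCs and Ab-ASCs therefore depend on the scale. By FPKM, 20 tested members lay above and 18 below Ab-ASCs in all PVASC libraries, beside the 13 called higher and 23 called lower (56.9% of all genes were called). Of all 16526 genes tested, 42.8% lay above and 19.5% below on the same FPKM scale. Bmp6, Gdf11, Bmpr1a, Smad2, Smad4, Id2 and Id3 had higher FPKM in every PVASC library than in any Ab-ASC library without passing the test, and Tgfbr1, Tgfbr3, Bambi, Fstl1 and Id1 were called lower in PVASCs although their FPKM overlapped. No member with FPKM above in every PVASC library was called lower.

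The 3 TGF-β ligands were set differently in each depot. Tgfb1 encodes the ligand that is commonly used to induce smooth muscle genes in culture. It was found at 17.5, 16.3 and 18.1 FPKM in Sub-ASC replicates 1 to 3, at 45.0, 43.4 and 42.9 in Ab-ASCs and at 29, 28.2 and 26.4 in PVASCs. Ab-ASCs were thus highest and Sub-ASCs lowest, with no overlap between groups. The log2 fold change was 1.41 ± 0.06 (SE, adjusted p = 6.06e-10) for Ab-ASCs against Sub-ASCs, 0.53 ± 0.06 for PVASCs against Sub-ASCs and -0.88 ± 0.06 for PVASCs against Ab-ASCs. Tgfb3, whose product signals through the same receptors, had 5.20 ± 0.20 FPKM (SD, n = 3) in Sub-ASCs, 16.6 ± 0.70 in Ab-ASCs and 25 ± 0.27 in PVASCs, so here PVASCs were highest. Tgfb2, which needs betaglycan for high-affinity binding, had its highest level in Sub-ASCs (4.56 ± 0.32 FPKM) and its lowest in Ab-ASCs (1.87 ± 0.26). All differences of Tgfb2 and Tgfb3 between groups passed the test, and Tgfb3 shares 12.4% of its exonic bases with other annotated genes. Per length, Tgfb1 made up 63.9% ± 1.8 of the summed FPKM of the 3 ligands in Sub-ASCs and 70.3% ± 1.5 in Ab-ASCs, but 50% ± 1.2 in PVASCs, where Tgfb3 supplied 44.9% ± 0.88.

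Among the latent TGF-β binding proteins, which tether the latent complex to matrix, Ltbp2 differed the most. Unlike Ltbp1 and Ltbp3, its product is a matrix protein that does not bind latent TGF-β covalently. Its FPKM were 6.58, 6.77 and 7.25 in Sub-ASCs, 250, 248 and 257 in Ab-ASCs and 79.2, 79.8 and 76.9 in PVASCs. No library came near those of another group, and the log2 fold change was 5.26 ± 0.06 for Ab-ASCs against Sub-ASCs (adjusted p = 8.52e-15), 3.36 ± 0.05 for PVASCs against Sub-ASCs (7.54e-14) and -1.91 ± 0.05 for PVASCs against Ab-ASCs (4.43e-11). Ltbp2 (chr12:84783212-84876532, GRCm38) shares 9.34% of its exonic bases with another annotated gene, and the strand used in counting is not given. Ltbp1 was highest in PVASCs, at 29.9, 31.7 and 30 FPKM, against 19.0, 20.3 and 19.6 in Sub-ASCs and 13.7, 14.5 and 14.1 in Ab-ASCs. It was higher in PVASCs than in Ab-ASCs with a log2 fold change of 0.89 ± 0.05 (adjusted p = 2.28e-08). Ltbp3 was at 51.5 ± 2.5 FPKM in Sub-ASCs and 51.3 ± 1.4 in Ab-ASCs, a difference that did not pass the test, and at 70.6 ± 1.4 in PVASCs, higher than both. Bmp1, despite its name a protease that cleaves procollagens and chordin, was highest in Sub-ASCs (114 ± 1.3 FPKM) and lower in Ab-ASCs (58.8 ± 1.5) and PVASCs (50.4 ± 1.7). All 3 of its differences passed.

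Of the activin subunit genes, Inhba differed strongly between depots and Inhbb less so. Inhba encodes the βA subunit, 2 copies of which form activin A. It was at 5.82, 6.25 and 5.72 FPKM in Sub-ASCs, at 118, 229 and 198 in Ab-ASCs and at 91.5, 88.6 and 92.5 in PVASCs. Sub-ASC libraries were far below all others, and the low Ab-ASC value came from replicate 1. The log2 fold change was 5.0 ± 0.19 for Ab-ASCs against Sub-ASCs (adjusted p = 1.43e-10), 3.78 ± 0.18 for PVASCs against Sub-ASCs (1.34e-09) and -1.22 ± 0.16 for PVASCs against Ab-ASCs (5.25e-05). Without Ab-ASC replicate 1 the last was -1.44. Inhbb, the gene of the βB subunit, had 37.3, 36.4 and 38.8 FPKM in Sub-ASCs, 51.7, 55.2 and 53.4 in Ab-ASCs and 29.2, 28.1 and 28.0 in PVASCs. Its levels did not overlap between groups, and PVASCs were lowest (log2 fold change -1.14 ± 0.05 against Ab-ASCs, adjusted p = 2.4e-09). Inhba thus held 13.7% ± 0.92 of the summed FPKM of both subunits in Sub-ASCs and 76.3% ± 5.9 in Ab-ASCs and 76.2% ± 0.52 in PVASCs.

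The follistatin genes, whose products bind activins in the case of Fst and Fstl3, were also depot dependent. Fst was at 8.53 ± 0.41 FPKM in Sub-ASCs, 26.4 ± 0.99 in Ab-ASCs and 45.9 ± 0.36 in PVASCs, and all 3 differences passed (log2 fold change 2.27 ± 0.06 for PVASCs against Sub-ASCs, adjusted p = 3.53e-12). Fstl3 followed another order, with 4.08 ± 0.20 FPKM in Sub-ASCs, 12.6 ± 0.48 in Ab-ASCs and 8.80 ± 0.90 in PVASCs. Since 47.3% of its exonic bases are shared with Prss57, its reads cannot be fully assigned. Fstl1, a secreted glycoprotein of the mesenchyme, had the highest FPKM of all members in each depot, from 352 to 398 over the 9 libraries. It was lower in PVASCs by small amounts (-0.28 ± 0.04 against Sub-ASCs and -0.23 ± 0.04 against Ab-ASCs), and the difference between Ab-ASCs and Sub-ASCs did not pass.

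**Figure D2:**
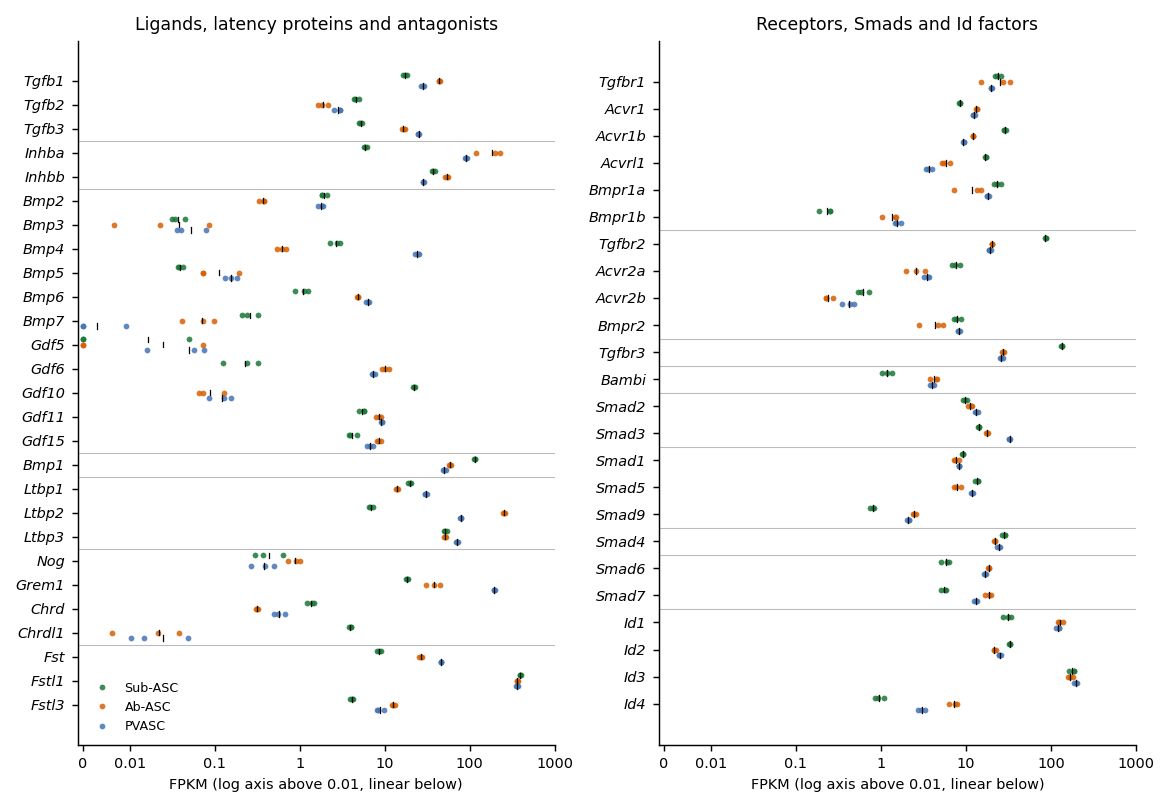
FPKM of all 51 members in the 9 libraries, 1 point per library, with a black tick for the mean of 3 libraries. The axis is logarithmic above 0.01 and linear below, and lines part the roles. Replicates lie close together for most members above 1 FPKM, and Gdf10, Chrdl1, Gdf6 and Ltbp2 show gaps of more than a decade between Sub-ASCs and the other groups.

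BMP and GDF ligands changed in identity more than in sum. Their summed level was 38.1 ± 0.23 FPKM in Sub-ASCs, 33.3 ± 1.2 in Ab-ASCs and 55.9 ± 1.7 in PVASCs, but a different gene led in each depot. Gdf10, also called Bmp3b, made up 58.5% ± 1.4 of the sum in Sub-ASCs and under 1% in the others, Bmp4 made up 43.2% ± 1.4 in PVASCs, and Gdf6 made up 30.6% ± 2.5 in Ab-ASCs beside Gdf11 and Gdf15 at 25.4% ± 1.1 and 25.5% ± 1.4. Of the 9 ligands of this class with enough reads, 6 were higher and 2 lower in PVASCs than in Sub-ASCs, 5 were higher and 4 lower in Ab-ASCs than in Sub-ASCs, and 2 were higher and 3 lower in PVASCs than in Ab-ASCs. Over all tested genes, 70.4%, 75.3% and 56.9% passed in these comparisons.

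The promoters of the 2 leading ligands, Gdf10 in Sub-ASCs and Bmp4 in PVASCs, are shown because these genes set the depots apart. Each is the 250 bases before a transcription start in RefSeq (GRCm38.p6), read on the strand of the gene: Gdf10 from chr14:33923337-33923586 on the plus strand and Bmp4 from chr14:46390670-46390919 on the minus strand. Their GC content was 78.8% and 63.2%. Neither stretch contains GGCGCC, GTCTAGAC or CAGACA on either strand, which are the Smad-related motifs searched here, so no base is in capitals. Gdf10 does have 1 match to GGCGCC in the searched promoter of 300 bases, which reaches into the 50 bases after the start that are not printed.
Gdf10: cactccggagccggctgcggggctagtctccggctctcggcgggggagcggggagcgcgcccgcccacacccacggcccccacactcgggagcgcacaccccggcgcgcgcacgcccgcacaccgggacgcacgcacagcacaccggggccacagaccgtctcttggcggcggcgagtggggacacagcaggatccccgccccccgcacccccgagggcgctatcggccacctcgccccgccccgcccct
Bmp4: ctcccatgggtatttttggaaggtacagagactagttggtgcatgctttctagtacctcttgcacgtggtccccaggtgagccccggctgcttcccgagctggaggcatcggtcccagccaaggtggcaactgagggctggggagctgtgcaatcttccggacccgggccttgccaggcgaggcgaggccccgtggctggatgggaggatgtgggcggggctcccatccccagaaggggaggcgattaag

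Gdf10 (chr14:33923587-33937983) was measured at 22.2, 22.9 and 21.7 FPKM in Sub-ASCs, at 0.0655, 0.0732 and 0.129 in Ab-ASCs and at 0.128, 0.0849 and 0.154 in PVASCs. It was abundant in every Sub-ASC library and close to the lower end of detection in the other 6. The log2 fold change against Sub-ASCs was -7.87 ± 0.14 for Ab-ASCs (adjusted p = 2.07e-13) and -7.65 ± 0.13 for PVASCs (1.28e-13), the largest of any member, and Ab-ASCs and PVASCs overlapped. Bmp4, a ligand with roles in adipose commitment and vessel development, had 2.71, 2.97 and 2.25 FPKM in Sub-ASCs, 0.542, 0.697 and 0.616 in Ab-ASCs and 25.2, 22.5 and 24.7 in PVASCs. PVASC libraries were above all others and Ab-ASC libraries below all others. Its log2 fold change was 5.05 ± 0.12 for PVASCs against Ab-ASCs (adjusted p = 2.34e-11), 3.03 ± 0.10 for PVASCs against Sub-ASCs (3.06e-11) and -2.02 ± 0.15 for Ab-ASCs against Sub-ASCs (7.65e-08). The endothelial marker sum followed the same order of groups, with 9 of 10 markers higher in PVASCs than in Ab-ASCs. Against Sub-ASCs, 8 were higher and 2, Tek and Cldn5, were lower. The part of these markers in the level of Bmp4 was not tested.

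Bmp2, the closest relative of Bmp4, was at 1.83, 1.81 and 2.07 FPKM in Sub-ASCs, 0.384, 0.334 and 0.378 in Ab-ASCs and 1.85, 1.86 and 1.63 in PVASCs. It was low in all Ab-ASC libraries (log2 fold change -2.32 ± 0.14 against Sub-ASCs, adjusted p = 1.5e-08, and 2.06 ± 0.14 for PVASCs against Ab-ASCs, 1.92e-07), while PVASCs and Sub-ASCs overlapped. For the latter pair Bmp2 had a log2 fold change of -0.26 with an adjusted p of 0.0506, which became 0.0479 without Ab-ASC replicate 1, 0.0457 in a fit of only those groups and 0.0408 for genes with at least 10 reads in every library. Bmp6, known as the BMP of iron sensing, had 0.873, 1.26 and 1.13 FPKM in Sub-ASCs, 4.91, 4.84 and 4.74 in Ab-ASCs and 6.56, 6.43 and 6.09 in PVASCs. Sub-ASCs were lowest, with log2 fold changes of 2.21 ± 0.11 (adjusted p = 2.34e-09) for Ab-ASCs and 2.38 ± 0.11 (9.49e-10) for PVASCs. The difference of 0.17 between PVASCs and Ab-ASCs did not pass, but a fit of only those groups gave 0.24 with an adjusted p of 0.0146.

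Gdf6 (chr4:9844372-9862345), a ligand of joint and skeletal development, showed 0.321, 0.240 and 0.126 FPKM in Sub-ASCs, 9.34, 11.3 and 9.98 in Ab-ASCs and 7.11, 7.24 and 7.70 in PVASCs. Every Ab-ASC and PVASC library was far above the Sub-ASC libraries, and Ab-ASCs were above PVASCs. The log2 fold change was 5.56 ± 0.17 (adjusted p = 1.48e-11) and 4.86 ± 0.17 (6.31e-11) against Sub-ASCs, and -0.70 ± 0.11 (0.000159) for PVASCs against Ab-ASCs. Its close relative Gdf5 was near 0 in all depots, with 0, 3 and 0 reads in Sub-ASCs, 0, 4 and 0 in Ab-ASCs and 4, 1 and 5 in PVASCs, so that no difference was detectable at this depth. Bmp3 was similar, with 6, 6 and 9 reads in Sub-ASCs, 1, 15 and 4 in Ab-ASCs and 8, 8 and 17 in PVASCs.

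Bmp7 (chr2:172868012-172940321), known for promoting brown fat differentiation, was rare as well. It had 0.324, 0.211 and 0.241 FPKM in Sub-ASCs, 0.0970, 0.0738 and 0.0418 in Ab-ASCs and 0, 0.00917 and 0 in PVASCs. A single read was found over the 3 PVASC libraries, against 79 over the Sub-ASC and 19 over the Ab-ASC libraries. The ratio of reads, scaled by library total, was 88.4 for Sub-ASCs to PVASCs (95% exact interval 15.4 to 3537) and 24.0 for Ab-ASCs to PVASCs (3.81 to 996), where the intervals cover counting error only and the fitted fold change, which depends on the prior count, is not given. The test called Bmp7 lower in PVASCs than in Sub-ASCs (adjusted p = 2.59e-06) and than in Ab-ASCs (0.000988), and lower in Ab-ASCs than in Sub-ASCs with a log2 fold change of -1.8 ± 0.40 (0.00124). Bmp5 was at 0.0370 to 0.0418 FPKM in Sub-ASCs, 0.194, 0.0737 and 0.0730 in Ab-ASCs and 0.133 to 0.182 in PVASCs. Its difference between Ab-ASCs and Sub-ASCs, with a log2 fold change of 1.55 (adjusted p = 0.0159), rested on Ab-ASC replicate 1 and was 0.95 (0.147) without it. Between PVASCs and Sub-ASCs, Bmp5 had a log2 fold change of 1.82 ± 0.47 (adjusted p = 0.00412), which stayed within 1.71 to 1.94 without any 1 library. Of its exonic bases, 46.7% are shared with Gm26903. Gdf11 and Gdf15, the latter a ligand induced by cell stress that signals through a separate receptor of the brainstem, were both higher in Ab-ASCs (log2 fold change 0.71 ± 0.08 and 1.10 ± 0.11) and PVASCs (0.59 ± 0.08 and 0.53 ± 0.11) than in Sub-ASCs.

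**Figure D3:**
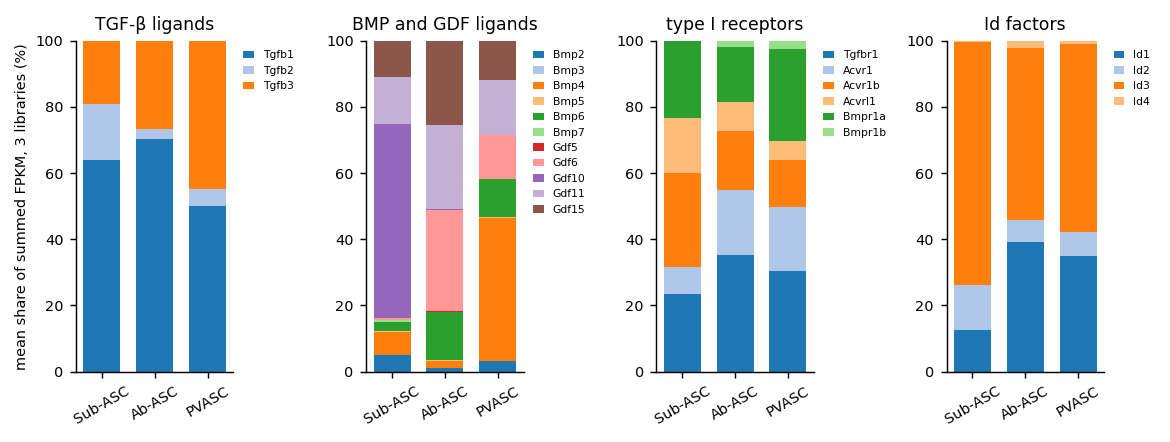
Mean share of each gene in the summed FPKM of its role (percent, 3 libraries per group) for TGF-β ligands, BMP and GDF ligands, type I receptors and Id factors. Gdf10 fills 58.5% of the BMP and GDF bar in Sub-ASCs and Bmp4 43.2% in PVASCs, and Id1 fills 12.6% of the Id bar in Sub-ASCs, 39.3% in Ab-ASCs and 35.0% in PVASCs.

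The 4 BMP antagonist genes of the member list, which leaves out the follistatins, were dominated by Grem1. It is the gene of gremlin 1, which binds BMP2, BMP4 and BMP7. Its FPKM were 18.4, 19.0 and 17.8 in Sub-ASCs, 30.7, 45.2 and 38.4 in Ab-ASCs and 199, 195 and 192 in PVASCs. PVASC libraries were all far above the rest, and Ab-ASC replicate 1 was the lowest of its group but still above every Sub-ASC library. The log2 fold change was 3.25 ± 0.10 for PVASCs against Sub-ASCs (adjusted p = 2.04e-11), 2.13 ± 0.10 for PVASCs against Ab-ASCs (3.55e-09) and 1.12 ± 0.10 for Ab-ASCs against Sub-ASCs (3.38e-07). Grem1 and Bmp4, an antagonist and its ligand, thus both had their highest level in PVASCs. Grem1 held 76.2% ± 1.5 of the summed FPKM of the 4 antagonist genes in Sub-ASCs, 96.9% ± 0.40 in Ab-ASCs and 99.5% ± 0.082 in PVASCs.

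The Grem1 promoter is shown because Grem1 had the highest level in PVASCs among the BMP antagonist genes of the member list. Its promoter also holds a GC-rich Smad motif. It is the 250 bases before the start in RefSeq (GRCm38.p6, chr2:113758649-113758898, minus strand), with 72% GC, and the capitals mark GGCGCC, an element described for BMP Smads, which begins 78 bases before the start.
Grem1: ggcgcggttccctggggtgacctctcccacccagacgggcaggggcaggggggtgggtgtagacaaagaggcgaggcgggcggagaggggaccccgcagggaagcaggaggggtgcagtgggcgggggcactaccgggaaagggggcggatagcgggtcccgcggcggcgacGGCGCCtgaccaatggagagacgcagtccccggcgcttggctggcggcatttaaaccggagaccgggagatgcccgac

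Chrdl1 (chrX:143285674-143394262), the gene of a chordin-like BMP antagonist, behaved like Gdf10. It was at 3.76, 4.0 and 4.06 FPKM in Sub-ASCs, 0.0216, 0.0376 and 0.00621 in Ab-ASCs and 0.0149, 0.0491 and 0.0103 in PVASCs. Sub-ASCs were far above both other groups, which overlapped, and the log2 fold change was -7.39 ± 0.26 for Ab-ASCs (adjusted p = 6.71e-11) and -7.46 ± 0.24 for PVASCs (2.96e-11). Only 10 reads of Chrdl1 were found over the Ab-ASC and 14 over the PVASC libraries, and the values became -8.05 without Ab-ASC replicate 2 and -8.35 without PVASC replicate 2. Chrd, the gene of chordin, was also highest in Sub-ASCs (1.36 ± 0.14 FPKM), with 0.316 ± 0.011 in Ab-ASCs and 0.577 ± 0.091 in PVASCs, and all 3 differences passed. Nog, the gene of noggin, was low everywhere, at 0.372, 0.296 and 0.637 FPKM in Sub-ASCs, 0.719, 0.899 and 1.01 in Ab-ASCs and 0.494, 0.391 and 0.267 in PVASCs. Ab-ASCs were above both others, with a log2 fold change of -1.41 ± 0.32 for PVASCs against Ab-ASCs (adjusted p = 0.00255), and Sub-ASCs and PVASCs overlapped.

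Most receptor genes that differed were lower outside the subcutaneous depot. Of 6 type I receptor genes, 2 were higher and 3 lower than in Sub-ASCs, in Ab-ASCs as in PVASCs, and of 4 type II receptor genes all were lower in Ab-ASCs and 3 in PVASCs. With 38.3% of all genes lower in Ab-ASCs and 35.7% in PVASCs, counts of so few genes are a description only. Among type I receptors, which carry the signalling kinase, Acvr1b, the activin receptor ALK4, was at 28.5 ± 0.77 FPKM in Sub-ASCs, 12.2 ± 0.068 in Ab-ASCs and 9.37 ± 0.13 in PVASCs. Acvrl1 (ALK1), best known as the receptor for BMP9 and BMP10 on endothelial cells, was at 17.2, 17.1 and 16.7 FPKM in Sub-ASCs, 6.50, 5.25 and 5.54 in Ab-ASCs and 3.55, 3.39 and 4.01 in PVASCs. The groups did not overlap, and PVASCs were lowest, with a log2 fold change of -2.38 ± 0.09 against Sub-ASCs (adjusted p = 2.17e-10) and -0.89 ± 0.10 against Ab-ASCs (1.09e-05). PVASCs were the group with the highest endothelial marker sum, so this receptor and that sum had opposite orders between PVASCs and Sub-ASCs. Of the 10 markers, 8 were higher and 2 lower in PVASCs than in Sub-ASCs, the latter being Tek (-1.63) and Cldn5 (-3.50). Acvr1 (ALK2) went the other way, with 8.45 ± 0.15 FPKM in Sub-ASCs, 13.3 ± 0.30 in Ab-ASCs and 12.4 ± 0.36 in PVASCs.

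Bmpr1b (ALK6), a BMP receptor of cartilage formation, was rare in Sub-ASCs, at 0.254, 0.187 and 0.250 FPKM, and higher in Ab-ASCs at 1.04, 1.48 and 1.52 and in PVASCs at 1.52, 1.46 and 1.71. The 2 latter groups overlapped, and both differed from Sub-ASCs, with log2 fold changes of 2.62 ± 0.18 (adjusted p = 3.62e-08) and 2.60 ± 0.17 (3.09e-08). Bmpr1a (ALK3), the more abundant BMP receptor, was at 22.9, 25.7 and 21.5 FPKM in Sub-ASCs, 7.17, 15.2 and 13.4 in Ab-ASCs and 18.9, 17.9 and 17.7 in PVASCs. Ab-ASC replicate 1 had less than either other Ab-ASC library. For PVASCs against Sub-ASCs, Bmpr1a had a log2 fold change of -0.52 (adjusted p = 0.0227), and the p became 0.0868, 0.0653 and 0.0706 without Sub-ASC replicate 2, PVASC replicate 2 and PVASC replicate 3. For PVASCs against Ab-ASCs it did not pass (0.0924), but did without Ab-ASC replicate 2 (0.0133) and with no low-count filter (9.71e-07).

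Tgfbr1 (ALK5), the type I receptor of TGF-β, had 23.3, 25.6 and 22.2 FPKM in Sub-ASCs, 15.2, 33.2 and 27.1 in Ab-ASCs and 20.2, 19.7 and 19.7 in PVASCs. Ab-ASC libraries spanned the range of both other groups, with replicate 1 the lowest and replicate 2 the highest of all 9. No firm order of the depots could be given for Tgfbr1. In Ab-ASCs against Sub-ASCs, the log2 fold change was 0.14 (adjusted p = 0.493) and 0.40 (1.55e-05) without Ab-ASC replicate 1. In PVASCs against Ab-ASCs, it was -0.56 (0.0226), and -0.33 (0.0915) without Ab-ASC replicate 2. The p of that comparison was also 0.0653 without Ab-ASC replicate 3 and 0.0539, 0.0586 and 0.0610 without PVASC replicate 1, 2 or 3, and 0.104 in a fit of only those groups. In PVASCs against Sub-ASCs, it was -0.41 (0.0643), which passed without Ab-ASC replicate 1 (2.53e-06), without Ab-ASC replicate 2 (0.0196), with no low-count filter (2.60e-08) and in a fit of only those groups (2.21e-07).

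The type II receptor gene Tgfbr2 and the betaglycan gene Tgfbr3 were both higher in Sub-ASCs. Tgfbr2, the ligand-binding receptor of TGF-β, was at 84.6, 87.7 and 86.8 FPKM in Sub-ASCs, 20.3, 20.2 and 20 in Ab-ASCs and 20, 18.8 and 18.7 in PVASCs. It was far higher in every Sub-ASC library, and the log2 fold change was -2.03 ± 0.05 for Ab-ASCs (adjusted p = 2.2e-12) and -2.33 ± 0.05 for PVASCs (7.31e-13). Tgfbr3 (chr5:107106570-107289629), the gene of betaglycan, a co-receptor that presents TGF-β2, was at 134, 131 and 137 FPKM in Sub-ASCs, 26.5, 27.9 and 27.0 in Ab-ASCs and 26.0, 27.0 and 25 in PVASCs. Its Ab-ASC and PVASC levels overlapped and were far below those of Sub-ASCs, with log2 fold changes of -2.24 ± 0.05 (adjusted p = 8.28e-13) and -2.52 ± 0.05 (3.14e-13). The ligand Tgfb2 had its highest level in Sub-ASCs too, whereas Tgfb1 and Tgfb3 were lowest there.

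The activin and BMP type II receptors were lower in Ab-ASCs than in Sub-ASCs in each case. Acvr2a was at 7.61 ± 0.81, 2.61 ± 0.67 and 3.5 ± 0.21 FPKM in Sub-ASCs, Ab-ASCs and PVASCs, and Bmpr2, the type II receptor most specific to BMPs, was at 7.90 ± 0.68, 4.28 ± 1.4 and 8.26 ± 0.27. Bmpr2 was low in Ab-ASCs only, with a log2 fold change of -0.82 ± 0.16 against Sub-ASCs (adjusted p = 0.000608) and 0.73 ± 0.16 for PVASCs against Ab-ASCs (0.00248), and its difference between PVASCs and Sub-ASCs (-0.09 ± 0.16) did not pass. Ab-ASC replicate 1 had 2.77 FPKM of Bmpr2 against 5.40 and 4.67 in replicates 2 and 3, and without it the first 2 values were -0.60 and 0.51 and still passed. Acvr2b was under 1 FPKM in all libraries. Its call in PVASCs against Ab-ASCs (0.59, adjusted p = 0.0418) was lost without any one of Sub-ASC replicate 2, the 3 Ab-ASC replicates, PVASC replicate 2 or PVASC replicate 3 (0.0521 to 0.131), with DESeq2 (0.0554) and with no low-count filter (0.0822). For Acvr2a, PVASCs against Ab-ASCs gave 0.19 (0.256) and 0.38 (0.0173) without Ab-ASC replicate 2. Together, Tgfbr2, Acvr2a, Acvr2b and Bmpr2 summed to 102 ± 2.6 FPKM in Sub-ASCs, 27.3 ± 2.0 in Ab-ASCs and 31.4 ± 0.59 in PVASCs.

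Bambi, whose product resembles a type I receptor without its kinase and dampens signalling, was lowest in Sub-ASCs. It was at 1.19 ± 0.17 FPKM in Sub-ASCs, 4.23 ± 0.42 in Ab-ASCs and 3.97 ± 0.18 in PVASCs, with log2 fold changes against Sub-ASCs of 1.90 ± 0.12 and 1.58 ± 0.11. In PVASCs against Ab-ASCs, Bambi had -0.32 (adjusted p = 0.0204), which became 0.0712 and 0.0609 without PVASC replicate 2 or 3 and 0.0505 in a fit of only those groups.

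The inhibitory Smads differed more between depots than most signalling Smads. Smad6, which mainly blocks BMP signalling, was at 5.97, 5.15 and 6.39 FPKM in Sub-ASCs, 18.9, 18.7 and 18.2 in Ab-ASCs and 17.1, 16.3 and 16.9 in PVASCs. Smad7, which blocks both branches, was at 5.82, 5.05 and 5.65, at 17.0, 19.8 and 18.6 and at 13.5, 12.5 and 13.2. Both were lowest in Sub-ASCs and highest in Ab-ASCs without overlap. The log2 fold change of Ab-ASCs against Sub-ASCs was 1.74 ± 0.08 for Smad6 (adjusted p = 6.95e-10) and 1.81 ± 0.07 for Smad7 (1.79e-10), that of PVASCs against Sub-ASCs 1.37 ± 0.08 and 1.09 ± 0.07, and that of PVASCs against Ab-ASCs -0.37 ± 0.07 and -0.73 ± 0.07.

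Around the start of Smad6, RefSeq (GRCm38.p6, chr9:64022045-64022074, minus strand) holds the palindrome GTCTAGAC, a strong Smad-binding element in vitro. It is shown because it was the only such match among the member promoters, and the capitals mark it, from 4 bases before the start onwards.
Smad6 start: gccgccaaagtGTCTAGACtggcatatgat

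Receptor Smads shifted toward Smad3 in PVASCs. Smad3 was at 14.2, 14.2 and 14.0 FPKM in Sub-ASCs, 17.9, 17.2 and 18.0 in Ab-ASCs and 32.5, 33.1 and 32.3 in PVASCs, with no overlap and PVASCs highest (log2 fold change 1.05 ± 0.05 against Sub-ASCs, adjusted p = 1.48e-09, and 0.66 ± 0.05 against Ab-ASCs, 4.58e-07). Smad2 ranged from 9.20 to 13.7 FPKM over all libraries and was higher by 0.27 ± 0.06 and 0.28 ± 0.06 in Ab-ASCs and PVASCs than in Sub-ASCs. Smad3 made up 59.1% ± 1.2 of the summed FPKM of both in Sub-ASCs, 61.1% ± 1.8 in Ab-ASCs and 71.0% ± 0.45 in PVASCs. Of the BMP Smads, Smad1 stayed within 7.28 to 9.29 FPKM and Smad5 within 7.27 to 14.0. Smad5 was lower in Ab-ASCs (-0.71 ± 0.06) and PVASCs (-0.36 ± 0.06) than in Sub-ASCs and higher in PVASCs than in Ab-ASCs (0.35 ± 0.06). Smad9, a less abundant BMP Smad, was higher in Ab-ASCs (2.48 ± 0.12 FPKM) and PVASCs (2.08 ± 0.067) than in Sub-ASCs (0.797 ± 0.047), with log2 fold changes of 1.70 ± 0.10 and 1.23 ± 0.10. Smad4, the shared partner, differed little, with -0.29 ± 0.06 and -0.38 ± 0.06 against Sub-ASCs. Smad1 was lower in PVASCs than in Sub-ASCs, at a log2 fold change of -0.30 ± 0.06 (SE, adjusted p = 0.000463). For Smad1, Ab-ASCs against Sub-ASCs gave -0.20 (adjusted p = 0.00853), which became -0.16 (0.0550) without Ab-ASC replicate 3.

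The Id genes, whose products block basic helix-loop-helix factors and which are early BMP targets, did not move together. Id3, the most abundant of them, was at 185, 165 and 189 FPKM in Sub-ASCs, 184, 167 and 159 in Ab-ASCs and 199.8, 187 and 203 in PVASCs. It was the only tested member without a call in any comparison, with log2 fold changes of -0.01 ± 0.07, -0.02 ± 0.07 and -0.03 ± 0.07. Id1 was at 34.0, 27.4 and 31.2 FPKM in Sub-ASCs, 139, 125 and 122 in Ab-ASCs and 125, 115 and 124 in PVASCs, higher in each Ab-ASC and PVASC library than in any Sub-ASC library (log2 fold change 2.13 ± 0.09, adjusted p = 3.51e-10, and 1.81 ± 0.09, 1.61e-09). Id4 was at 0.918, 1.08 and 0.860 FPKM in Sub-ASCs, 6.35, 7.97 and 7.50 in Ab-ASCs and 2.95, 3.33 and 2.77 in PVASCs. Its groups did not overlap, with Ab-ASCs highest (log2 fold change 3.0 ± 0.12 against Sub-ASCs, adjusted p = 1.93e-10, and -1.50 ± 0.10 for PVASCs against Ab-ASCs, 1.63e-07). Id2 was lower in Ab-ASCs (21.6 ± 0.69 FPKM) and PVASCs (25.1 ± 0.74) than in Sub-ASCs (32.7 ± 0.68).

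RefSeq promoters of 300 bases, from 250 before to 50 after a start, were found for 34 of the 51 members, 41 promoters in all. GGCGCC, searched on both strands, occurred in 12 of them (29.3%), against 11.9% of all 32851 promoters of that length. Overlapping promoters of 1 gene, as for Smad5, were counted separately, and the promoters were not matched for GC content. GTCTAGAC occurred in 1 (2.44%, against 0.213%) and CAGACA, another Smad-related motif, in 8 (19.5%, against 21.04%). Matches to different motifs could share no more than an end base. These matches describe letters only and were not tested for use by a Smad.

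Downstream and accessory genes of the same pathways were taken from a further list of 79 genes, of which 55 were tested. Compared with Sub-ASCs, 29 were higher and 19 lower in PVASCs, and 30 higher and 18 lower in Ab-ASCs. Compared with Ab-ASCs, 12 were higher and 28 lower in PVASCs. The shares called were 87.3%, 87.3% and 72.7%, where 70.4%, 75.3% and 56.9% of all tested genes passed, and the counts of targets below are read against the same shares of all genes. Of 13 TGF-β targets, 9 were higher and 4 lower in PVASCs than in Sub-ASCs, 8 higher and 5 lower in Ab-ASCs than in Sub-ASCs, and 3 higher and 9 lower in PVASCs than in Ab-ASCs.

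The contractile genes Acta2, Tagln and Cnn1, which are both TGF-β targets and smooth muscle markers, were highest in Ab-ASCs and lowest in Sub-ASCs. Tgfb1, Inhba, Ltbp2 and Smad7 had the same order, but other members did not. Tgfb3, Smad3 and Fst were highest in PVASCs, and Tgfb2, Tgfbr2, Tgfbr3 and Acvr1b in Sub-ASCs. Acta2 (α-SMA) had log2 fold changes of 6.39 ± 0.10 for Ab-ASCs and 5.57 ± 0.09 for PVASCs against Sub-ASCs, Tagln (SM22α) 6.40 ± 0.19 and 4.98 ± 0.20, and Cnn1 (Calponin) 9.59 ± 0.18 and 8.99 ± 0.18. All 9 tested smooth muscle markers, with these 3 among them, were higher in both groups than in Sub-ASCs. Over all tested genes, 37% were higher in Ab-ASCs and 34.7% in PVASCs. These 3 genes thus cannot be told apart here from that marker list. Tagln shares 67.9% of its exonic bases with Gm48529 and Pcsk7 and Ctgf 23.2% with Gm15270, so their reads cannot be fully assigned. Among matrix targets, Fn1 (2.07 ± 0.04 and 1.52 ± 0.04) and Ctgf (6.10 ± 0.06 and 5.0 ± 0.06) were higher than in Sub-ASCs, whereas the collagen gene Col3a1 was lower (-2.91 ± 0.05 and -3.04 ± 0.05). Tgfbi, a matrix adhesion protein, was lower in Ab-ASCs (-1.31 ± 0.11) and higher in PVASCs (2.17 ± 0.09), and the oxidase gene Nox4 was lower in both (-1.69 ± 0.12 and -0.46 ± 0.10).

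**Figure D4:**
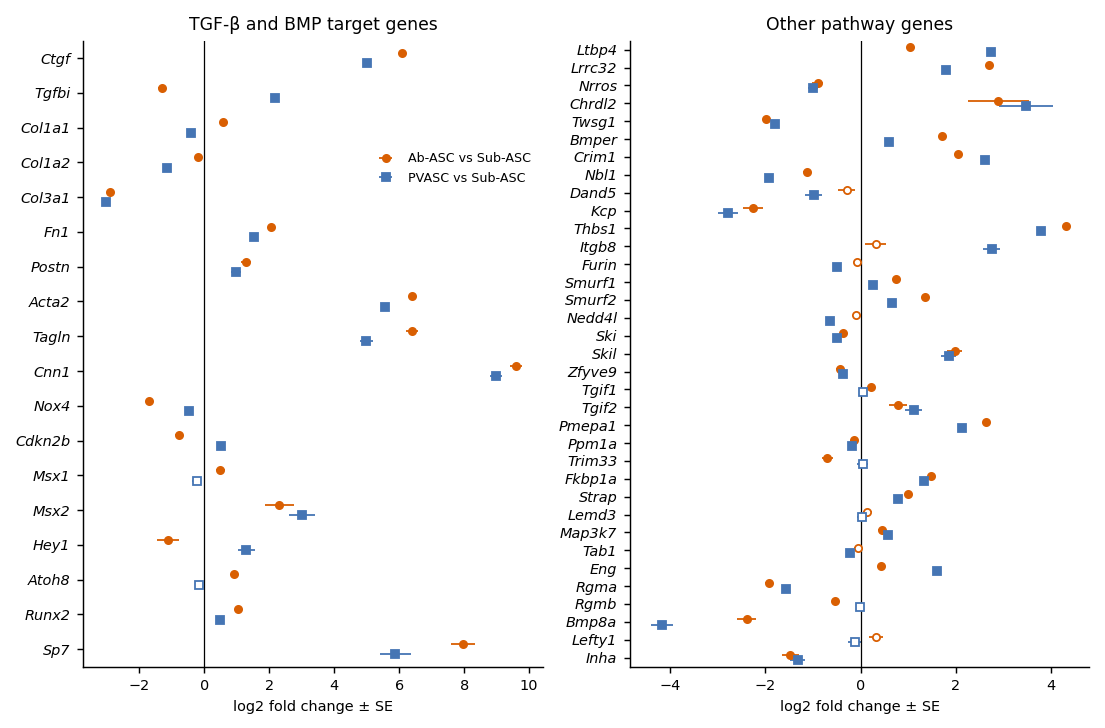
Log2 fold change with standard error of tested genes of the further pathway list against Sub-ASCs, for Ab-ASCs (circles) and PVASCs (squares), with targets on the left and other genes on the right. Open symbols did not pass the test. Acta2, Tagln, Cnn1 and Ctgf lie far to the right in both groups, and Tgfbi lies on opposite sides.

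Feedback and accessory genes were mixed. Pmepa1 and Skil, TGF-β-induced inhibitors of the pathway, were higher in Ab-ASCs (2.64 ± 0.05 and 1.97 ± 0.16) and PVASCs (2.14 ± 0.05 and 1.85 ± 0.16) than in Sub-ASCs. Thbs1, the gene of an activator of latent TGF-β, and Lrrc32, that of its cell surface anchor GARP, were higher as well, with 4.32 ± 0.04 and 2.69 ± 0.05 in Ab-ASCs and 3.79 ± 0.04 and 1.8 ± 0.05 in PVASCs. Ltbp4, Crim1 and Itgb8 were highest in PVASCs, with log2 fold changes against Sub-ASCs of 2.75 ± 0.07, 2.62 ± 0.07 and 2.76 ± 0.18. Eng (endoglin), the co-receptor of ALK1, was at 87.2, 91.3 and 86.8 FPKM in PVASCs, 34.6, 31.6 and 34.2 in Ab-ASCs and 25.2, 27.4 and 26.0 in Sub-ASCs, opposite to the order of Acvrl1, and the part of the endothelial markers in this was not tested. Twsg1, Nbl1 and Kcp, which encode further extracellular BMP modulators, and the ligand genes Bmp8a and Inha were lower in both groups than in Sub-ASCs. Of 6 tested BMP targets, 5 were higher and 1 lower in Ab-ASCs than in Sub-ASCs and 4 higher and none lower in PVASCs, whereas 1 was higher and 4 lower in PVASCs than in Ab-ASCs. One of them, the osteoblast factor gene Sp7, was at 0, 0 and 0.0219 FPKM in Sub-ASCs, 2.01, 2.12 and 2.36 in Ab-ASCs and 0.512, 0.672 and 0.604 in PVASCs.

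Ab-ASC replicate 1 affected several members. Its log2 CPM minus the mean of the other Ab-ASC libraries was -0.93 for Bmpr1a, -0.92 for Tgfbr1, -0.79 for both Bmpr2 and Inhba, -0.51 for Acvr2a and 1.27 for the rare Bmp5. Over all genes, the deviation in this library had a median of 0.15 for genes of at most 2257 bases and -0.083 for genes of at least 6217, and its SD was 0.461 over all genes and 0.372 over the tested members. Bmpr1a, Tgfbr1, Bmpr2 and Inhba have gene lengths above the latter limit, while the other tested members above it lay between -0.11 and 0.22, for example Ltbp1 (10480 bases) at 0.0021 and Chrdl1 (6758 bases) at 0.22. The untested Bmp3 (7398 bases) had 1 read in this library and 15 and 4 in the others. The part of gene length was not tested. Without this library, 46 members were called in PVASCs against Sub-ASCs, 35 in PVASCs against Ab-ASCs and 45 in Ab-ASCs against Sub-ASCs, against 44, 36 and 45 with it. Over all genes the calls went from 11628 to 12736, from 9396 to 9282 and from 12442 to 12714 in the same order.

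**Figure D5:**
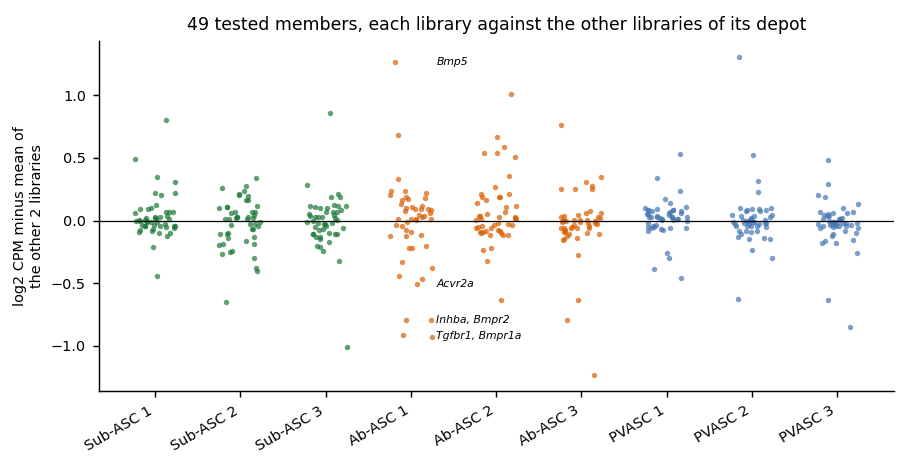
Deviation of each tested member in each library, as log2 CPM minus the mean of the other 2 libraries of its depot, 1 point per member. Labels name the members of Ab-ASC replicate 1 with the values given above, and the points are spread sideways for display only. In Ab-ASC replicate 1, Bmpr1a, Tgfbr1, Bmpr2 and Inhba lie between -0.79 and -0.93.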

How the data were processed

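Cultured mouse ASCs of 3 depots were sequenced in 9 libraries. The authors deposited 1 table of raw read counts per gene and library, without normalization, with gene lengths and positions. The submitters' processing notes name CASAVA 1.8, Bowtie 0.12.2 and featureCounts 1.5.0-p3 and the builds mm8 and mm10, without roles. Strandedness is not given in the sources used here. Listed positions equalled GENCODE M21 (GRCm38) for 53499 of 54532 genes (98.1%), including 49 of 51 members.

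Counts were tested with edgeR 4.0.16 (limma 3.58.1, R 4.3.3). Genes were filtered by filterByExpr, library sizes scaled by TMM, and all libraries entered 1 quasi-likelihood fit with group as the only term. P-values were adjusted over the 16526 tested genes by the Benjamini-Hochberg method, with a threshold of 0.05. The procedure was tested on simulated data. Standard errors are the log2 fold change over the root of F. FPKM was calculated here from counts, table gene length and library total in Python 3.11.15 (pandas 2.3.3, numpy 2.4.6), log2 CPM with a prior count of 2, and exact intervals with scipy 1.17.1. No row lacked a gene and 23735 genes had no read.

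The members and lists were chosen with earlier results of these data known. All members could be named. The 10 largest called fold changes per comparison and the members without any call were described in full. Other pathway genes were named if both comparisons of a depot called them with a log2 fold change of size 1 or more, at most 8 per list, besides Eng, Skil, Pmepa1, Acta2, Tagln and Cnn1, and some genes that the rule covers are counted but not reported here by name. DESeq2 1.42.0, RLE size factors, other filters, fits of 2 groups alone, a replicate block, a fold limit and leaving out each library were tried as alternatives. Promoters were read from RefSeq (GRCm38.p6).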

Additional observations from a re-analysis of the deposited data

How the results depend on the processing

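Of 2193 member fold changes recomputed under the alternatives, 2121 kept direction and side of the threshold, 23 lost and 13 gained the call, and 36 changed sign, all of the last among 9 results that had not passed the test. In PVASCs against Ab-ASCs, Bmpr1b was -0.01 and became 0.014 with DESeq2, 0.012 with RLE size factors, 0.031 with at least 10 reads in every library and 0.062 in a fit of only those groups, Id2 became 0.011, 0.010, 0.030 and 0.062, Id3 0.0043, 0.0042, 0.024 and 0.057, and Chrdl1 0.0047 in the fit of only those groups. Id3 in Ab-ASCs against Sub-ASCs became 0.0025 with no low-count filter. Leaving out 1 library each gave -0.14 to 0.078 for Bmpr1b, -0.97 to 0.59 for Chrdl1, -0.072 to 0.062 for Id3 and -0.014 to 0.036 for Smad2 in PVASCs against Ab-ASCs, -0.087 to 0.048 for Id3 and -0.082 to 0.40 for Tgfbr1 in Ab-ASCs against Sub-ASCs, and -0.084 to 0.016 for Id3 and -0.56 to 0.051 for Nog in PVASCs against Sub-ASCs. The cause was not tested.

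A size limit of 1 on the log2 fold change left 27 members in PVASCs against Sub-ASCs (10 lower), 9 in PVASCs against Ab-ASCs (3 higher, 6 lower) and 13 lower ones in Ab-ASCs against Sub-ASCs, and of the other pathway genes 30 (9 lower), 15 (7 higher, 8 lower) and 30 (10 lower), by construction. All other counts stayed within 1.5 times. Without 1 library each, 43 to 46 members were called between PVASCs and Sub-ASCs, 33 to 36 between PVASCs and Ab-ASCs and 44 to 45 between the other two groups. With a replicate block, 44, 35 and 45 members passed in that order. Deviations of libraries with the same number correlated between -0.051 and 0.095, so the number was taken as a name only. Gdf5 and Bmp3, at or near 0 reads, cannot be ranked at this depth beyond their counts.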
